A study of Mus musculus with 6 samples.

Results

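The axon guidance ligands and receptors were taken as every gene whose only annotated symbol begins with Sema, Plxn, Epha, Ephb, Efna, Efnb, Robo, Unc5 or Ntng, together with Nrp1, Nrp2, Slit1, Slit2, Slit3, Ntn1, Ntn4 and Dcc. This gave 71 of the 18193 genes that the array names by 1 symbol. Of these, 58 had a mean log2 level of at least 4 over all mice and were tested, among 11221 genes tested in all, and 13 lay below that filter. The prefixes also brought in 3 genes outside these families: Unc50, a Golgi protein gene that was tested, and Unc5cl and Plxna4os1, which lay below the filter. A probe set is a group of short probes read as 1 value, and the probe set with the highest mean stood for each gene.

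The arrays (Affymetrix Mouse430_2, 1 per mouse) read amygdala RNA from 6 mice of the 129S1/SvImJ (S1) strain, all males of 8 to 10 weeks, dissected 2 h after fear extinction training. The 3 zinc diet mice are replicates 3, 7 and 10, and the 3 control diet mice are replicates 1, 9 and 11, as their labels number them. All 6 mice had gone through extinction training, so no untrained animals enter the comparison, and S1 is an inbred strain known for poor fear extinction. The labels call the diet Zn or ZnR and give neither its zinc content nor the meaning of the R. The direction in which its zinc differed from that of the control diet is thus not given in the sources used here, and zinc diet below is only a group name. Levels below are log2 probe set levels, listed for control replicates 1, 9 and 11 and zinc diet replicates 3, 7 and 10 in that order. Differences are zinc diet minus control diet on the log2 scale with the standard error from limma.

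Guidance cues steer growing axons by attraction or repulsion, and in the adult brain the same molecules act at synapses, on spines and in blood vessels and glia. Semaphorins signal through plexins, and most secreted class 3 semaphorins need a neuropilin as coreceptor, whereas Sema3e can bind plexin D1 directly. Ephrins and Eph receptors are both anchored to membranes and signal in each direction between touching cells. Slits repel axons through robos, and netrins attract through Dcc or repel through Unc5 receptors.

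Levels of some cell type markers differed between the diets, and single libraries stood apart. The marker lists were chosen with earlier results of these data known. Medium spiny neuron and intercalated cell markers were higher in zinc diet mice in 22 of 22 genes, 18 without overlap (81.8%, beside 13.7% of all genes). The mean level of this list was 9.21 to 9.48 in zinc diet mice and 8.25 to 8.49 in control mice. All 13 oligodendrocyte markers had differences above 0, with mean levels of 8.76 to 9.49 in zinc diet mice and 8.41 to 8.94 in control mice. Of 12 choroid plexus markers named on the array (of 14 listed), 6 were below the filter, and the 6 tested had a mean of 8.32 in control replicate 9 and of 5.48 to 6.13 in the other 5 mice, and the 4 tested of 10 meningeal markers were also highest there, at 8.85 against 7.67 to 8.30. Astrocyte, microglial, endothelial, interneuron and oligodendrocyte precursor lists overlapped between the diets in their mean level. All 7 tested oligodendrocyte precursor markers nevertheless had differences below 0 (median -0.13), 2 of them without overlap (28.6%, beside 13.7% of all genes). Excitatory neuron markers overlapped narrowly in their mean level, at 9.33 to 9.51 in zinc diet mice and 9.30 to 9.33 in control mice. Single genes of this list differed in both directions. Of its 13 tested genes, 3 were higher and 3 lower without overlap (46.2%, beside 13.7% of all genes). With an unadjusted p under 0.05 (limma), 4 were higher and 2 lower (46.2%, beside 7.04% of all genes). All 14 genes of a list known from amygdala nuclei were above the filter. This list shares genes with the neuron lists above, such as Rspo2 with the excitatory list. Of these 14, 3 were higher and 4 lower in zinc diet mice without overlap (50%, beside 13.7% of all genes). Among them were Rspo2 at 0.77 ± 0.17 and Trhr at -1.02 ± 0.13 (SE; limma adjusted p = 0.49 and 0.22). An unadjusted p under 0.05 (limma) was found for 4 higher and 4 lower genes (57.1%, beside 7.04% of all genes). The mean level of the list overlapped, at 9.24 to 9.30 in zinc diet mice and 9.18 to 9.41 in control mice. The part of these markers in the guidance gene differences below was not tested, and in whole tissue fewer cells of a type and less RNA per cell cannot be told apart.

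**Figure D1:**
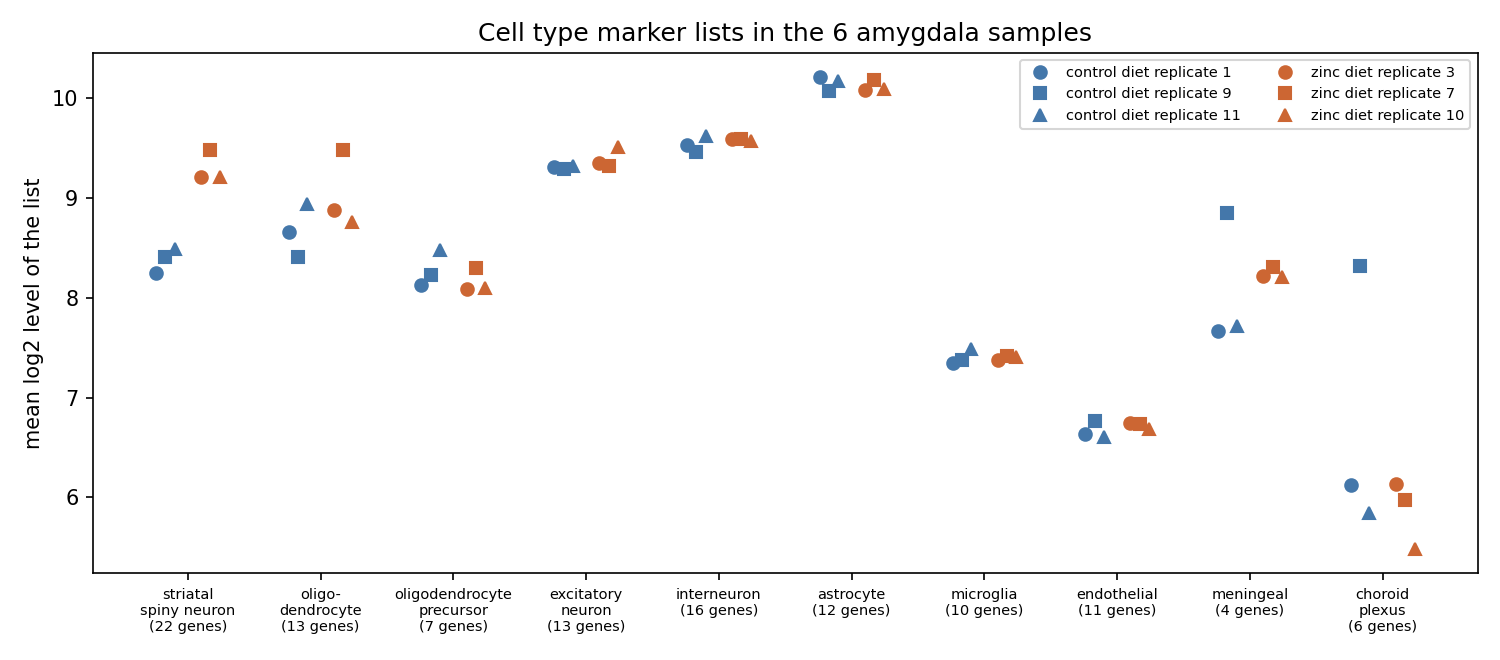
Mean log2 level (y axis) of 10 cell type marker lists in each of the 6 mice, with control diet in blue and zinc diet in orange and the number of tested genes under each list. The spiny neuron list separates the diets, zinc diet replicate 7 is highest in the oligodendrocyte list, and control replicate 9 is highest in the meningeal and choroid plexus lists.

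No axon guidance gene passed the threshold of an adjusted p of 0.05, and neither did any of the 22877 probe sets tested (limma, Benjamini-Hochberg, 0% called), of which 1460 had an unadjusted p under 0.05. The smallest adjusted p among the 58 genes was 0.38, for the ligand gene Sema3e and the receptor gene Nrp2. At an unadjusted p under 0.05 there were 12 genes, or 20.7% of those tested, beside a background of 7.04% over all genes tested. Leaving out control replicate 9 gave a count of 7 (background 6.47%), and leaving out zinc diet replicate 7 also gave 7 (background 3.81%). Leaving out control replicate 1 gave 8, or 13.8%, beside a background of 10.1%, and so brought the shares closest together. Zinc diet mice had the higher mean for 6 of the 12 (Sema3e, Sema3c, Sema4b, Sema7a, Ephb1 and Robo1; background 4.36%) and the lower mean for 6 (Nrp2, Efnb3, Slit1, Sema4g, Plxnb1 and Unc5c; background 2.68%). In 11 genes, or 19.0%, the values of the diets did not overlap, beside 13.7% of all genes. This group had 5 genes that were higher (background 8.12%) and 6 that were lower (background 5.55%). Differences were above 0 in 34 of the 58 genes and in 6115 of all 11221 genes tested. The median difference of the 58 genes was 0.059, beside 0.012 for all genes tested. Without zinc diet replicate 3 these medians were 0.017 and 0.015. The median absolute difference was 0.11, close to the median standard error of 0.11.

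**Figure D2:**
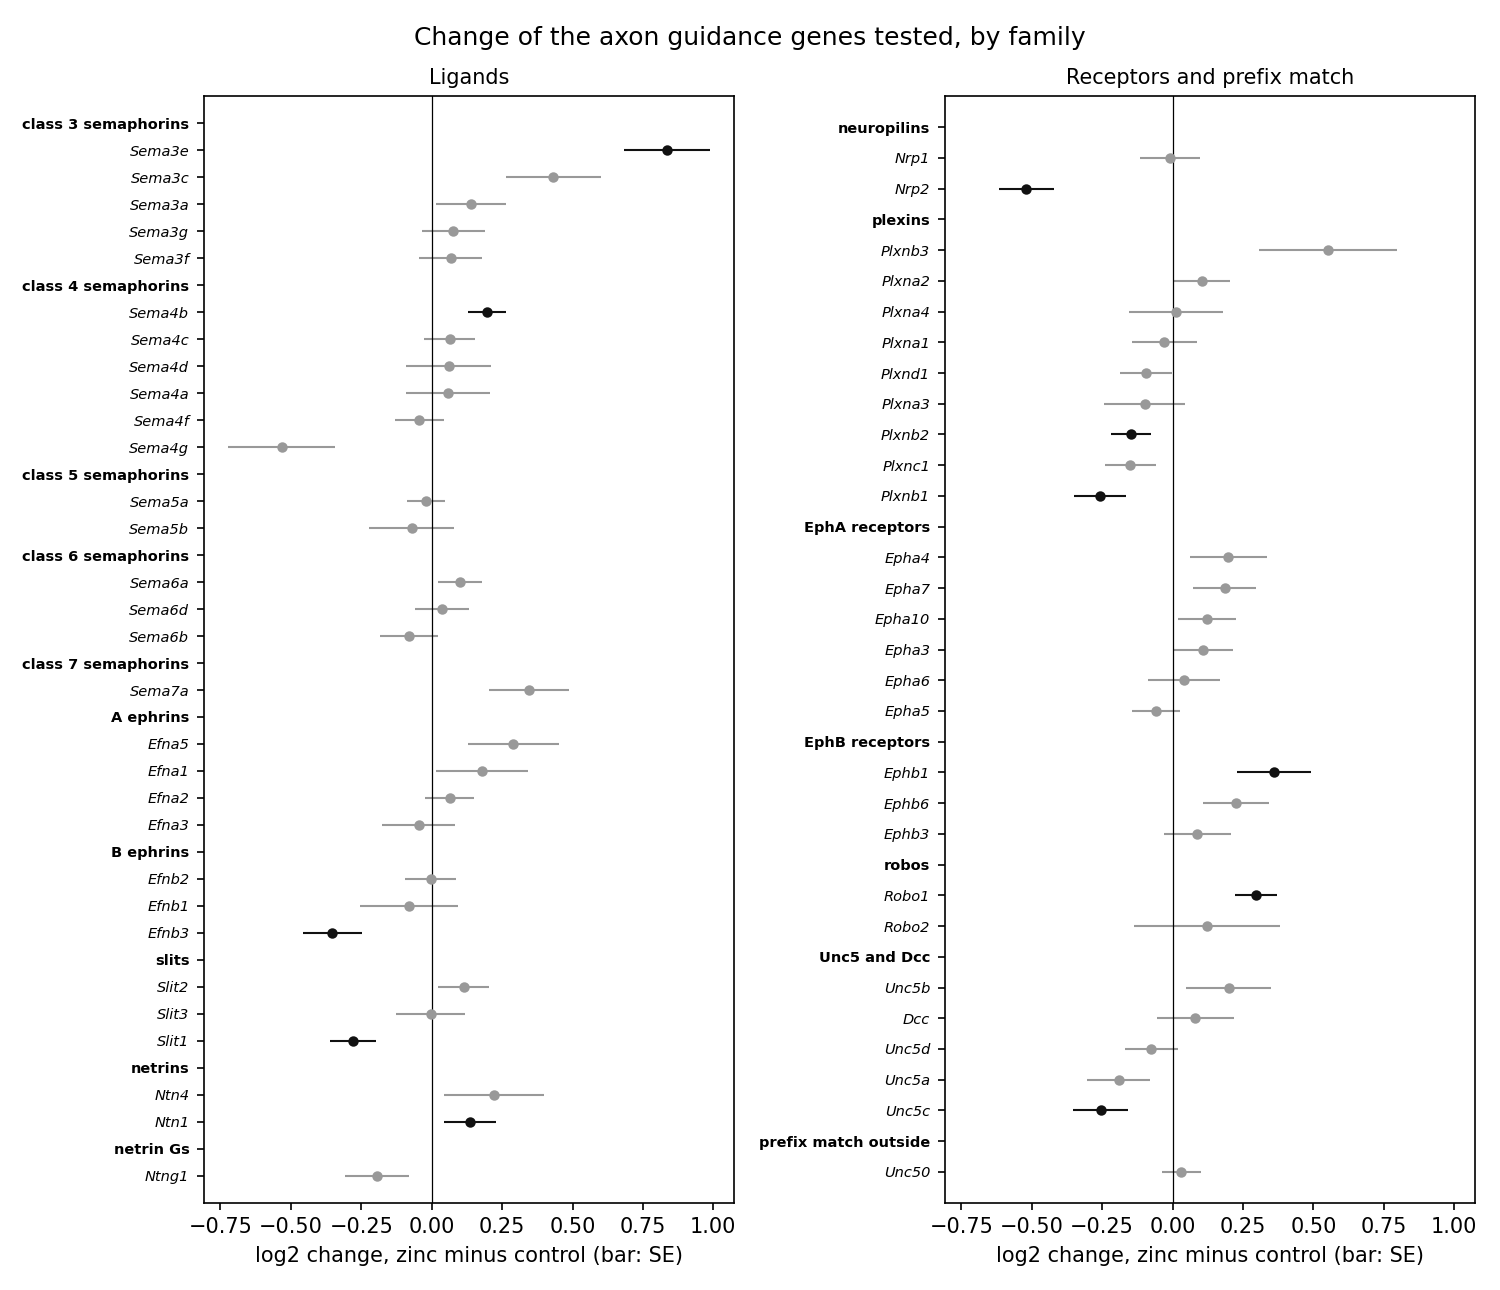
Log2 change (x axis, zinc diet minus control diet, n = 3 mice each) of the 58 genes tested, in rows by family, with ligands on the left and receptors on the right; points are limma estimates, bars are SE, and black marks genes whose diets did not overlap. Most genes lie within 0.25 of 0, with Sema3e at 0.84 and Sema4g and Nrp2 at -0.53 and -0.52 at the ends.

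Promoter sequences are shown for the 3 genes with the smallest p-values that have 1 start site in the RefSeq promoter table (assembly GRCm38.p6). Each window is the 250 bases before that start. The genes were picked by p-value among those whose diets did not overlap, not by role. Sema3e is a secreted ligand, Nrp2 a coreceptor and Robo1 a receptor. Capitals mark GC boxes (GGGCGG on either strand) and metal response elements (TGCACNC or TGCGCNC on either strand, the core motif of the zinc-sensing factor MTF-1).
Sema3e, chr5:14025026-14025275, plus strand: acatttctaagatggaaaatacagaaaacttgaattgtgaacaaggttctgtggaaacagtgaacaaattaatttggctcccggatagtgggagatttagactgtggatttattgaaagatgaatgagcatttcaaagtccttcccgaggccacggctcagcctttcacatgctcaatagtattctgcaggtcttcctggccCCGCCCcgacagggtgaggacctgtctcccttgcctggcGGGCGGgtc
Nrp2, chr1:62703067-62703316, plus strand: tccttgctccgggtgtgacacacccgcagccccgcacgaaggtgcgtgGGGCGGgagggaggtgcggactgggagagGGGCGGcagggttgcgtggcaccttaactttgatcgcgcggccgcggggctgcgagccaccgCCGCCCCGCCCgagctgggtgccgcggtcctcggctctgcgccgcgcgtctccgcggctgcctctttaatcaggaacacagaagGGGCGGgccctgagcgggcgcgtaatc
Robo1, chr16:72662899-72663148, plus strand: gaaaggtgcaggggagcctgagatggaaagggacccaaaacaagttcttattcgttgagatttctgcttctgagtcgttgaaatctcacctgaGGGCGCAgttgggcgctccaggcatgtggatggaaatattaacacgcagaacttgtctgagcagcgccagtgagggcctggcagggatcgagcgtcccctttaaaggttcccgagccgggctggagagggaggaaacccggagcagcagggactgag
The Sema3e window held 2 GC boxes, beginning 48 and 9 bases before the start. The Nrp2 window held 5, beginning 202, 173, 111, 106 and 27 bases before it, of which the pair at 111 and 106 overlap by 1 base. Neither window had a metal response element, and the Robo1 window had 1, beginning 157 bases before the start, and no GC box. GC content was 48.0%, 72.4% and 56.0% in Sema3e, Nrp2 and Robo1. Of the 71 genes, 60 had 76 windows in the table. A GC box was found in 72.4% of these 76 windows and in 32.7% of all 32851 windows, and a metal response element in 25.0% and 21.4%. The median GC content was 64.2% in the windows of the guidance genes and 52.4% in all windows. These matches describe letters only. Slit1, Efnb3 and Ntn1 had no entry.

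Among the secreted class 3 semaphorins, 5 of 7 genes were tested and all 5 differences were above 0, with a median of 0.14. Differences were also above 0 in 6115 of all 11221 genes tested. Sema3e, whose product repels axons and endothelial cells that carry plexin D1, was at 7.21, 7.63 and 7.21 in control mice and at 7.97, 8.24 and 8.36 in zinc diet mice. Every zinc diet mouse lay above every control mouse, with control replicate 9 the nearest of the controls. The difference was 0.84 ± 0.15 (SE), a 1.79-fold higher level (limma adjusted p = 0.38). The other 2 tested probe sets of Sema3e gave 0.71 ± 0.15 and 0.79 ± 0.22 (SE), each again with no overlap. Leaving out each mouse in turn kept the difference of Sema3e between 0.75 and 0.98.

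Sema3c, a class 3 ligand that can signal through both neuropilins, was at 9.75, 9.19 and 9.37 in control mice and at 9.90, 10.06 and 9.64 in zinc diet mice. The ranges met, because control replicate 1 lay above zinc diet replicate 10. Its difference was 0.43 ± 0.17 (SE; limma adjusted p = 0.77), and it ranged from 0.31 to 0.59 with each mouse left out. Sema3a, the classical ligand of Nrp1, gave 0.14 ± 0.12 (SE). Sema3f, the preferred ligand of Nrp2, was at 4.83 ± 0.055 and 4.90 ± 0.20 (SD, n = 3 each, control and zinc diet), a difference of 0.067 ± 0.11 (SE) read from a probe set of a design that can match related transcripts. Sema3g, whose mean level of 4.08 was near the filter of 4, gave 0.077 ± 0.11 (SE). Sema3b and Sema3d were below the filter.

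Both neuropilins, the coreceptors of these ligands, were tested. Nrp2, which binds class 3 semaphorins including Sema3f and forms a receptor with A plexins, was at 10.23, 10.11 and 10.14 in control mice and at 9.81, 9.60 and 9.52 in zinc diet mice. The control values were close together and all above the zinc diet values. The difference was -0.52 ± 0.096 (SE), a 1.43-fold lower level (limma adjusted p = 0.38). It stayed between -0.60 and -0.46 with each mouse left out. The other tested probe sets gave -0.41 ± 0.11 and -0.54 ± 0.12 (SE) with no overlap, and -0.44 ± 0.23 (SE) with overlap. Nrp1 was at 8.58, 8.56 and 8.53 in control mice and at 8.38, 8.51 and 8.75 in zinc diet mice, so that the zinc diet values spread to both sides of the controls. Its difference was -0.0086 ± 0.11 (SE). The other 3 tested probe sets of Nrp1 gave -0.37 ± 0.23 and -0.011 ± 0.089 (SE) with overlap, and -0.15 ± 0.070 (SE) with no overlap. Whether the values of Nrp1 and Nrp2 differ was not tested.

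**Figure D3:**
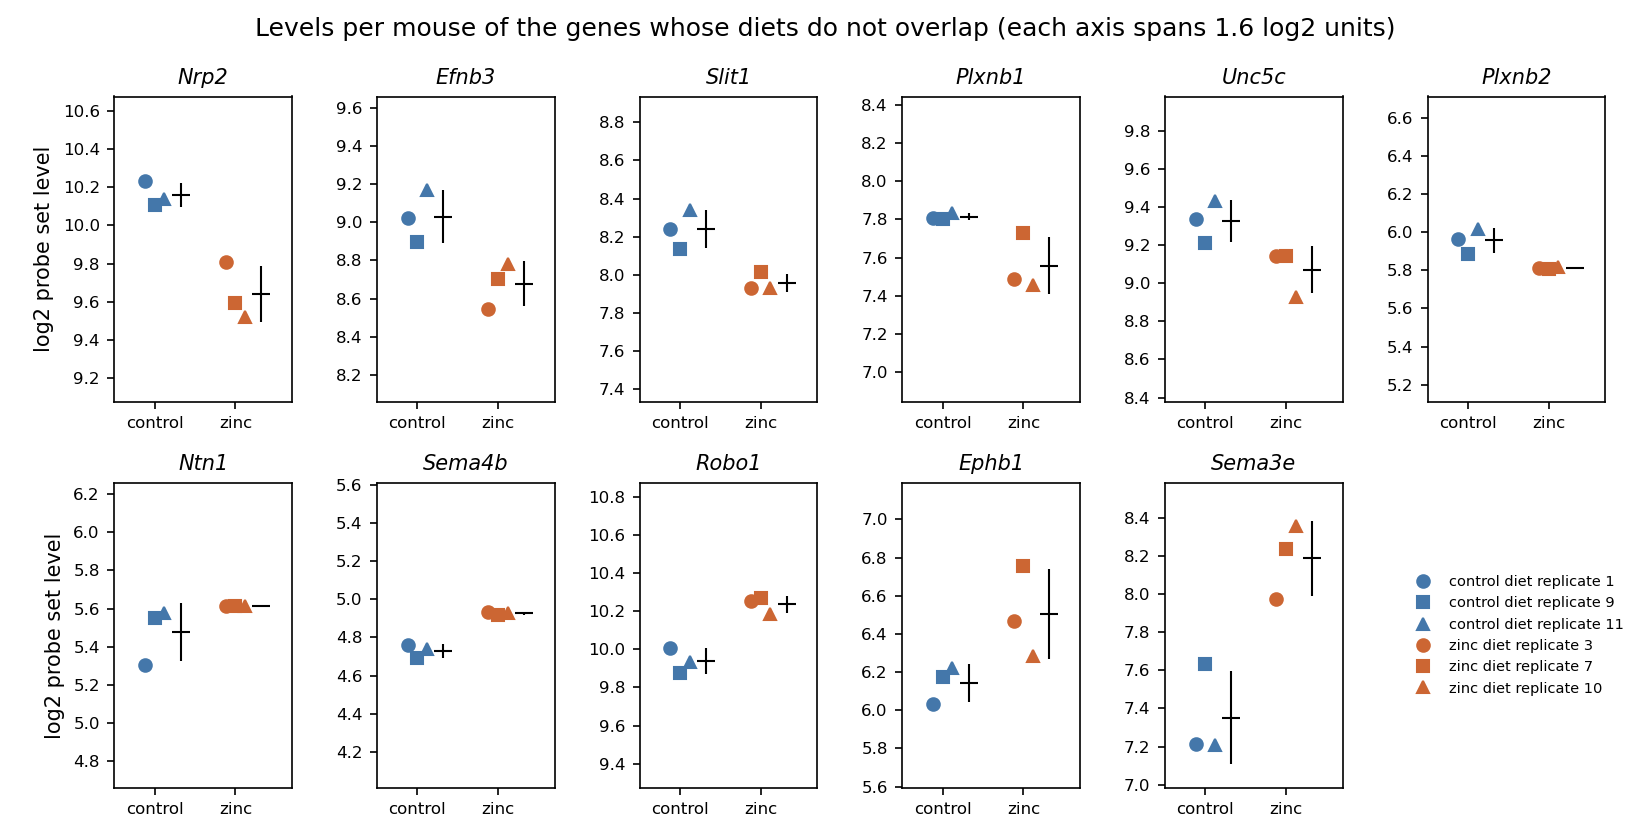
Log2 probe set level (y axis, spanning 1.6 units in each panel) in each mouse for the 11 genes whose diets did not overlap, ordered from the most negative to the most positive change; symbols are mice, and the bar to the right of each diet is the mean ± SD (n = 3). The diet means are 10.16 (control) and 9.64 (zinc) for Nrp2 and 7.35 and 8.19 for Sema3e, whereas Ntn1, Sema4b and Plxnb2 are separated by under 0.20.

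Membrane-bound semaphorins gave differences in both directions. In class 4, Sema4b was at 4.76, 4.69 and 4.74 in control mice and at 4.93, 4.92 and 4.93 in zinc diet mice. The diets did not overlap, although the difference was small, 0.20 ± 0.067 (SE), and the level was near the filter of 4. Sema4g was at 6.49, 6.10 and 6.84 in control mice and at 5.90, 6.12 and 5.81 in zinc diet mice. The ranges met at control replicate 9 and zinc diet replicate 7, and the difference was -0.53 ± 0.19 (SE; limma adjusted p = 0.74). It ranged from -0.72 without control replicate 9 to -0.35 without control replicate 11. Sema4d, the ligand of plexin B1, gave 0.060 ± 0.15 (SE), and Sema4a, Sema4c and Sema4f gave 0.058, 0.063 and -0.044. The probe sets of Sema4a and Sema4f are of a design that can match related transcripts. Their other tested probe sets gave -0.029 ± 0.099 for Sema4a and -0.15 ± 0.12 (SE) for Sema4f. The class 5 ligands Sema5a and Sema5b gave -0.020 and -0.071.

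Of the class 6 genes, Sema6a, a ligand of A plexins, had the smallest p with 0.10 ± 0.078 (SE), and its second tested probe set gave -0.10 ± 0.085 (SE). Sema6b and Sema6d gave -0.081 and 0.037, and Sema6c was below the filter. The second tested probe set of Sema6d gave -0.056 ± 0.088 (SE). Sema7a, a lipid-anchored semaphorin that signals through plexin C1 and integrins, was at 7.26, 7.27 and 7.44 in control mice and at 7.41, 7.93 and 7.68 in zinc diet mice. Only zinc diet replicate 3 fell within the control range. The difference was 0.35 ± 0.14 (SE; limma adjusted p = 0.78), and it was 0.21 without zinc diet replicate 7.

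Plexins, the signalling receptors for semaphorins, were all above the filter, with 6 of 9 differences below 0 and a median of -0.095. Differences were below 0 in 5106 of all 11221 genes tested. Plxnb1, the receptor for Sema4d, was at 7.80, 7.80 and 7.83 in control mice and at 7.49, 7.73 and 7.45 in zinc diet mice, with no overlap. This is a difference of -0.26 ± 0.093 (SE; limma adjusted p = 0.75). The second tested probe set of Plxnb1 gave 0.016 ± 0.079 (SE) with overlap, and the mean of both gave -0.12. Plxnb2 was at 5.97, 5.89 and 6.02 in control mice and within 5.81 to 5.82 in zinc diet mice, a difference of -0.15 ± 0.071 (SE; limma adjusted p = 0.81).

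Plxnb3, a plexin known for expression in oligodendrocytes, was at 6.47, 6.20 and 6.75 in control mice and at 6.73, 7.55 and 6.79 in zinc diet mice. Zinc diet replicate 7 stood apart, and it was also the mouse with the highest mean of the 13 oligodendrocyte markers, 9.49 against 8.41 to 8.94 in the other 5 mice. The difference of 0.55 ± 0.24 (SE; limma adjusted p = 0.80) was 0.29 without that mouse, and the part of oligodendrocyte content in it was not tested. Its probe set is of a design that can match related transcripts. Plxnd1, the receptor of Sema3e, was at 9.50, 9.50 and 9.30 in control mice and at 9.43, 9.25 and 9.33 in zinc diet mice, a difference of -0.095 ± 0.092 (SE). Plxnc1, the receptor of Sema7a, gave -0.15 ± 0.091 (SE). Its other tested probe sets gave -0.22 ± 0.11 (SE) with no overlap and -0.24 ± 0.57 (SE) with overlap. The A plexins, which pair with neuropilins, gave -0.028 (Plxna1), 0.10 (Plxna2), -0.099 (Plxna3) and 0.012 (Plxna4), each with overlapping diets.

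Ephrins are membrane-bound ligands, A ephrins by a lipid anchor and B ephrins by a transmembrane segment. Efnb3, a ligand that acts as a midline barrier for corticospinal axons, was at 9.02, 8.90 and 9.17 in control mice and at 8.55, 8.70 and 8.78 in zinc diet mice. All zinc diet values were below all control values, and the difference was -0.35 ± 0.10 (SE), a 1.28-fold lower level (limma adjusted p = 0.67). It stayed between -0.42 and -0.28 with each mouse left out. Efnb1 and Efnb2 gave -0.082 ± 0.17 and -0.0037 ± 0.091 (SE). Their other tested probe sets gave 0.085 ± 0.12 and -0.024 ± 0.11 for Efnb1, and 0.071 ± 0.077 (SE) for Efnb2. Of the A ephrins, Efna5 had the smallest p, with 6.04, 6.33 and 6.64 in control mice and 6.71, 6.72 and 6.44 in zinc diet mice, a difference of 0.29 ± 0.16 (SE). Efna1, Efna2 and Efna3 gave 0.18, 0.065 and -0.045, and Efna4 was below the filter. The second tested probe set of Efna3 gave 0.11 ± 0.10 (SE).

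Among the Eph receptor tyrosine kinases, 5 of the 6 EphA genes and all 3 EphB genes tested had differences above 0. So had 6115 of all 11221 genes tested. Ephb1 was at 6.03, 6.17 and 6.22 in control mice and at 6.47, 6.75 and 6.29 in zinc diet mice. The diets did not overlap, and zinc diet replicate 10 lay close to the controls. The difference was 0.36 ± 0.13 (SE; limma adjusted p = 0.75), and it was 0.23 without zinc diet replicate 7. Ephb6, which lacks kinase activity, gave 0.23 ± 0.12 (SE), and Ephb3 gave 0.088 ± 0.12 (SE). Ephb4 was below the filter, and Ephb2 was not analysed here. Epha4, which binds ephrins of both classes, gave 0.20 ± 0.14 (SE), and its 4 other tested probe sets gave 0.023 to 0.32. Epha7 gave 0.19 ± 0.11 and Epha5 gave -0.059 ± 0.084 (SE). The other tested probe sets of Epha7 gave 0.21 ± 0.070 (SE) with no overlap, and 0.086 ± 0.14 and -0.067 ± 0.14 (SE) with overlap. Those of Epha5 gave 0.079 ± 0.079, -0.021 ± 0.095 and 0.18 ± 0.10 (SE), each with overlap. The remaining tested EphA genes, Epha3, Epha6 and Epha10, gave 0.11, 0.041 and 0.12, and Epha1, Epha2 and Epha8 were below the filter.

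Of the 5 slit and robo genes tested, Slit1 and Robo1 had an unadjusted p under 0.05 (limma), beside 7.04% of all genes tested. Slit1 was at 8.24, 8.14 and 8.34 in control mice and at 7.93, 8.01 and 7.93 in zinc diet mice, with no overlap. Its difference was -0.28 ± 0.081 (SE; limma adjusted p = 0.67), and its second tested probe set gave -0.41 ± 0.17 (SE) with overlap. Slit2 and Slit3 gave 0.11 ± 0.091 and -0.0028 ± 0.12 (SE).

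Robo1, the receptor through which slits repel axons and migrating neurons, was at 10.01, 9.88 and 9.93 in control mice and at 10.25, 10.27 and 10.18 in zinc diet mice. Each diet kept to a narrow range with a gap between them, and the difference was 0.30 ± 0.074 (SE), a 1.23-fold higher level (limma adjusted p = 0.56). It stayed between 0.27 and 0.33 with each mouse left out. A second tested probe set gave 0.28 ± 0.16 (SE), with overlap. Robo2 had the highest SD pooled over both diets of all 58 genes, 0.398, with values of 7.15, 6.30 and 6.75 in control mice and 6.46, 6.92 and 7.19 in zinc diet mice, and its difference of 0.12 ± 0.26 (SE) was smaller than that spread. Robo3, whose product modifies slit responses at the midline, and Robo4, an endothelial robo, were below the filter.

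Among the netrin ligands and receptors, only the receptor gene Unc5c had an unadjusted p under 0.05 (limma), beside 7.04% of all genes tested. Ntn1, the founding chemoattractant, was at 5.30, 5.55 and 5.58 in control mice and at 5.61 to 5.62 in all zinc diet mice. The groups did not overlap, but the gap was small and the difference of 0.14 ± 0.093 (SE; limma adjusted p = 0.86) was 0.050 without control replicate 1. Ntn4 gave 0.22 ± 0.18 (SE). The attractive receptor gene Dcc was at 9.25, 8.94 and 9.18 in control mice and 8.99, 9.42 and 9.20 in zinc diet mice, a difference of 0.081 ± 0.14 (SE), with 0.16 ± 0.11 (SE) on its second tested probe set.

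Unc5c, a receptor for the repulsive response to netrin, was at 9.34, 9.21 and 9.43 in control mice and at 9.14, 9.14 and 8.93 in zinc diet mice, with no overlap. The difference was -0.25 ± 0.098 (SE; limma adjusted p = 0.76), whereas a second tested probe set gave 0.037 ± 0.25 (SE) and the mean of both gave -0.11. Unc5a, Unc5b and Unc5d gave -0.19, 0.20 and -0.075. The second tested probe set of Unc5b gave -0.18 ± 0.19 (SE), and both of its probe sets lay near the filter. Ntng1, a lipid-anchored netrin G that organises synapses through its own ligand rather than through Dcc, gave -0.19 ± 0.11 (SE), and Ntng2 was below the filter.

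**Figure D4:**
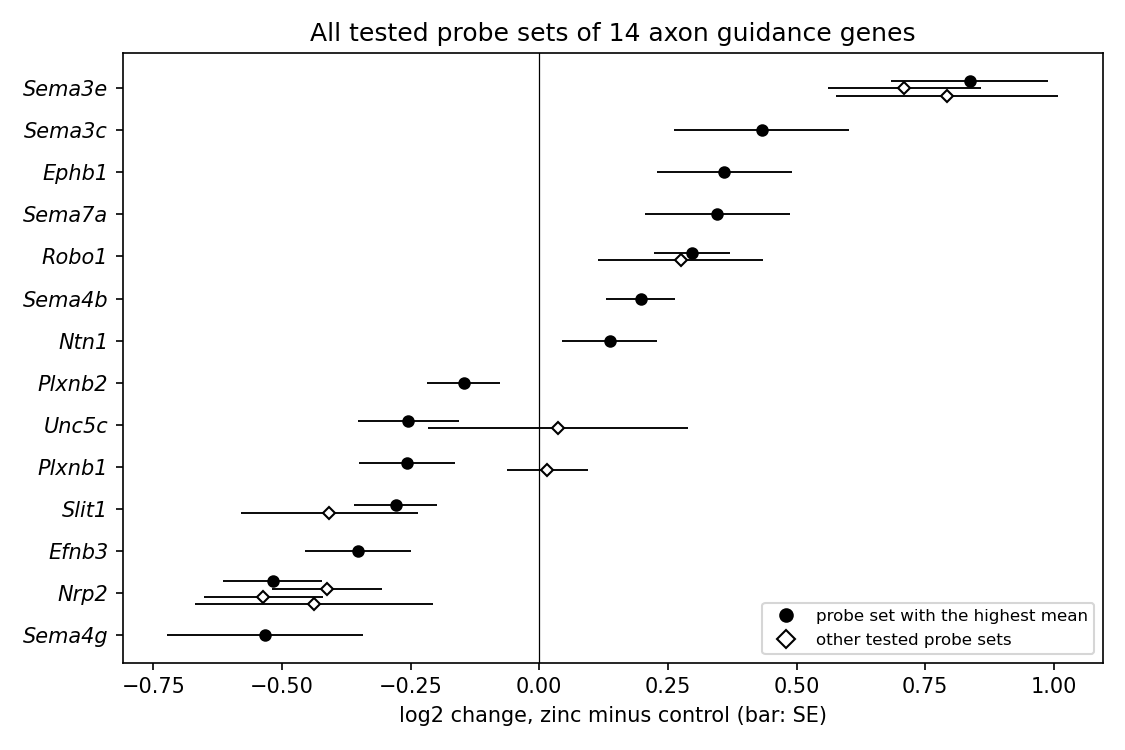
Log2 change (x axis, zinc diet minus control diet, bars are SE) on every tested probe set of the 14 genes that had an unadjusted p under 0.05 or diets that did not overlap; filled circles are the probe sets with the highest mean and open diamonds the others. All 3 probe sets of Sema3e and all 4 of Nrp2 lie on 1 side of 0, while the second probe sets of Plxnb1 and Unc5c lie near 0.

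Over the 58 genes, 27 had further tested probe sets, 46 in all, and 32 of the 46 had the same sign as the one standing for the gene. In the 12 genes with an unadjusted p under 0.05, 7 of 9 further probe sets had the same sign, the exceptions being those of Plxnb1 and Unc5c. These 9 belonged to only 6 of the 12 genes, and most with the same sign were of Sema3e and Nrp2. The remaining genes of the 12 had no further tested probe set. Sema3e, Nrp2, Robo1, Efnb3 and Slit1 had an unadjusted p under 0.05 in all 17 alternatives, which include leaving out each of the 6 mice. In 1 of the 17, without the prefix matches, the fit is unchanged, so the p-values of these genes could not differ. The other 7 genes had an unadjusted p under 0.05 in 1 or 2 of the 6 leave-outs.

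**Figure D5:**
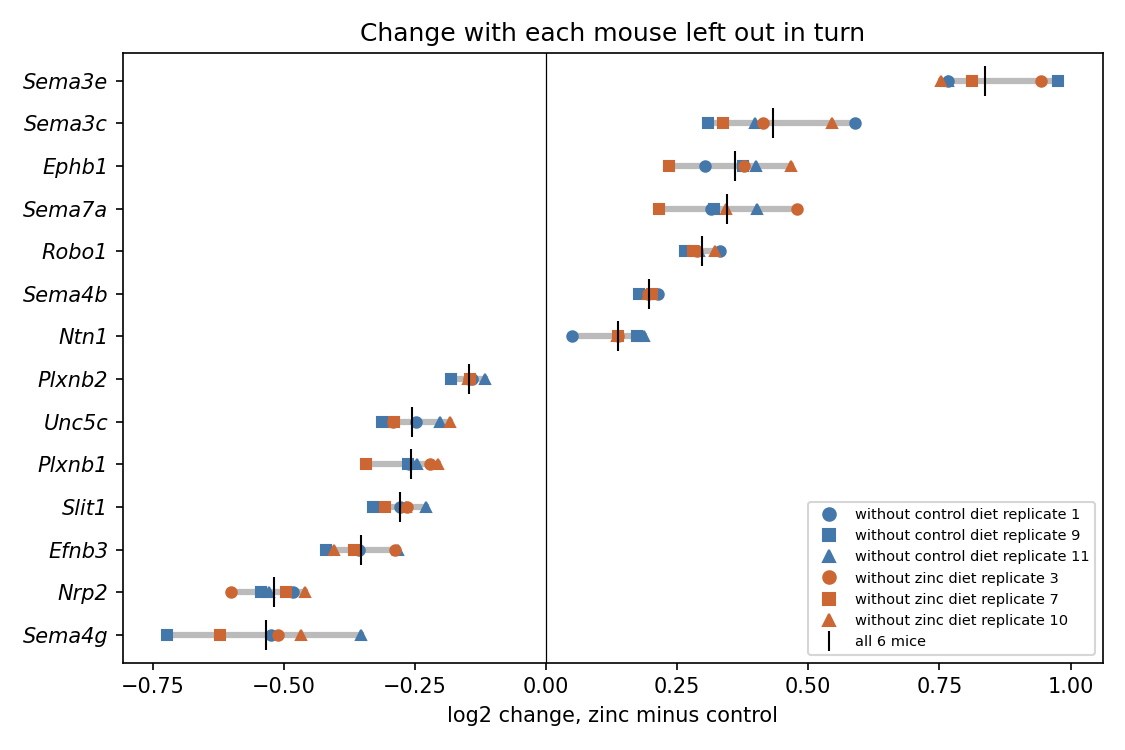
Log2 change (x axis, zinc diet minus control diet) of the same 14 genes with each mouse left out, where colour and symbol give the mouse left out and the black tick is the value from all 6 mice. Sema3e stays between 0.75 and 0.98 and Nrp2 between -0.60 and -0.46, whereas Ntn1 goes from 0.14 to 0.050 without control replicate 1 and Sema7a from 0.35 to 0.21 without zinc diet replicate 7.

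By role, 8 of the 10 secreted ligand genes tested had differences above 0 (median 0.13). The same held for 10 of 20 membrane-bound ligand genes (median 0.017) and 15 of 27 receptor genes (median 0.042). Of all 11221 genes tested, 6115 had differences above 0 (median 0.012). The median SD within a diet was 0.14 for the guidance genes and 0.12 for all genes tested. Control replicate 9 was the lowest mouse over the guidance genes as a whole: the median deviation from each gene's mean was -0.069 in it and -0.0032 to 0.029 in the other 5 mice, and it was the lowest mouse for 19 of the 58 genes. The deviation over all genes is not given here, so whether this is particular to the guidance genes was not tested. Control replicate 9 was also the mouse with the highest choroid plexus and meningeal marker levels, whose part in these deviations was not tested.

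Genes that carry the guidance signal inside the cell were taken from a separate list. Of 50 tested intracellular mediators, 33 had differences above 0 (median 0.023), as had 6115 of all 11221 genes tested (median 0.012). In this list 0 passed the adjusted threshold, and 3 (6%) had an unadjusted p under 0.05, all higher, a share below the background of 7.04%. The values of these 3 are therefore given as a description. Rnd1, a small GTPase that binds plexins, was higher by 0.37 ± 0.080 (SE), Ngef, which encodes the Eph-linked exchange factor ephexin, by 0.25 ± 0.070 (SE), and Chn2, a Rac-inactivating chimaerin, by 0.48 ± 0.18 (SE; limma adjusted p = 0.46, 0.65 and 0.76). The diets did not overlap in these 3 genes, nor in 2 further genes of the list, Cdk5r1 and Srgap2, which gave -0.056 and -0.18. These 5 are 10% of the list, beside 13.7% of all genes. Of 43 tested coreceptors, modifiers and other cues, 25 had differences above 0 (median 0.025), 2 were higher and 1 lower at an unadjusted p under 0.05, and 0 passed the adjusted threshold. These 3 are 6.98% of the list, close to the background of 7.04%, and in 7 genes (16.3%, beside 13.7% of all genes) the diets did not overlap. The 3 were the chemokine gene Cxcl12 (0.56 ± 0.20), the adhesion molecule gene Flrt1 (0.30 ± 0.12) and the synaptic adhesion gene Lrrc4b (-0.20 ± 0.067; SE).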

How the data were processed

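Amygdala RNA from 3 zinc diet and 3 control diet mice was read on 1-colour arrays, 1 per mouse. The authors deposited 1 table of log2 levels per probe set, whose log2 scale was read from the values. Per the submitters' processing notes, GCRMA 2.28.0 and R 2.15.1 were used, in roles that are not stated. Whether the values were centred is unknown. Array medians were 4.04 to 4.09. GCRMA, as usually run, can compress or stretch differences at low levels, and no detection call was used here. The table held 45101 probe sets; 64 controls were left out, 34958 had 1 symbol, 932 several and 9211 none here. Probe sets with a mean of at least 4 were tested in R 4.3.3 with limma 3.58.1 (lmFit and eBayes with diet alone in the model, two-sided), with Benjamini-Hochberg adjustment over all 22877. The fit was tested on simulated data. Nothing in the labels says more about the separateness of the samples than 1 mouse per array, and 3 arrays per diet limit the precision.

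Named genes were those whose diets did not overlap, the one with the smallest p in each family, and a fixed set of ligand and receptor partners; Sema3c, Sema4g, Plxnb3 and others were named after their values were seen. Members and lists were chosen with earlier results of these data known. The alternatives left out each mouse, dropped the filter or set it at 6, raised all values under 4 to 4, normalised by quantiles or centred on medians, used array weights or a trended and robust eBayes, averaged the probe sets per gene, or added the number in the title as covariate. Chosen after seeing the data were leaving out the 3 prefix matches and 1 probe set per gene. Promoter windows are RefSeq's, assembly GRCm38.p6.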

Additional observations from a re-analysis of the deposited data

How the results depend on the processing

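No paired analysis was possible because the diets share no replicate number. Across all 17 alternatives 0 guidance genes passed the adjusted threshold (limma), with 12 at an unadjusted p under 0.05 in the fit of all mice. That count was 7 to 10 (12.1% to 17.2%) with a mouse left out, beside 3.81% to 10.1% of all genes, and 11 to 14 (19.0% to 27.5%) otherwise, beside 6.08% to 10.9%. The count of genes whose diets did not overlap was 15 to 19 (25.9% to 32.8%) with a mouse left out, beside 19.3% to 31.5% of all genes. Fewer mice make separation easier. Without control replicate 1 the share was 31.0% in the guidance genes and 31.5% in all genes. The median difference was 0.017 to 0.067 with a mouse left out (all genes, 0.0037 to 0.028), and 0.021 with array weights (all genes, 0.0052). Of 30 genes followed, 8 had the opposite sign at least once. Nrp1 was at 0.0034 with median centring, Plxna4 at -0.028 with array weights and Epha5 at 0.044 as the mean of its probe sets. With a mouse left out, Dcc ranged from -0.027 to 0.19, Epha5 from -0.11 to 0.0084, Nrp1 from -0.11 to 0.076, Plxna4 from -0.14 to 0.13, Robo2 from -0.095 to 0.33, Sema3f from -0.033 to 0.16, Sema4d from -0.094 to 0.16 and Sema5b from -0.18 to 0.052. The other 22 genes kept their direction in every alternative run for them. The cause was not tested.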

Other observations

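The 13 genes below the filter of 4 were not tested. No detection call was used, so whether they were above background was not tested either. They were Sema3b, Sema3d, Sema6c, Efna4, Epha1, Epha2, Epha8, Ephb4, Robo3, Robo4, Ntng2, Unc5cl and Plxna4os1. The diets did not overlap in 3 of them: Robo3 had diet means of 2.70 in control mice and 2.90 in zinc diet mice, Sema6c 3.75 and 3.82, and Unc5cl, a relative of the netrin receptors, 2.40 and 2.29. With the filter dropped, the diets did not overlap in 12.3% of all genes. Sema3d was at 4.73 in zinc diet replicate 10 and at 3.55 to 3.97 in the other 5 mice.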
